A study of Mus musculus with 6 samples.

Results

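Nanopore long-read cDNA was used to ask which transcript isoforms of a gene were read in mouse embryonic stem cells with and without the RNA-binding protein SON. The 2 long-read libraries, 1 control and 1 *Son* knockdown, are 2 of the 6 samples of the study, and the other 4 are total RNA libraries, 2 per group. Genes were described when they had at least 50 reads in each long-read library and at least 2 transcripts with reads. This held for 3540 of the 17034 genes with any long read, of which 3525 are protein coding, and they had reads on 19436 annotated transcripts. Without the demand on transcripts, 3941 genes had 50 reads in each library.

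All samples are E14 cells, a mouse embryonic stem cell line of 129/Ola background, grown on gelatin in serum with leukemia inhibitory factor and transfected with Lipofectamine2000. The control groups received a control siRNA, the knockdown groups an siRNA against *Son*, and RNA was taken with TRIzol 24 hours later. Polyadenylated RNA went into the Nanopore cDNA libraries, and total RNA depleted of ribosomal RNA into the other 4. The labels of both long-read samples name the same total RNA knockdown sample as their starting material, the control included, and which total RNA replicate the control library belongs with, if any, is unclear. With 1 library per group the long-read comparison has no replicate check and no test. All intervals on long-read values are 95% Wilson intervals, which cover counting error only, as do the limits of 3 counts given for shares of 0.

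SON is a large protein of nuclear speckles, the nuclear bodies in which splicing factors gather, and carries an arginine- and serine-rich region like that of the SR proteins. It is known as a cofactor that helps the spliceosome use weak splice sites, often in cell cycle genes, and as a factor that embryonic stem cells need to stay pluripotent. A transcript that keeps an intron or skips an exon can lose its reading frame, and such RNA can be held in the nucleus or degraded by nonsense-mediated decay, the pathway that removes messages with early stop codons.

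The control library gave 217 reads of *Son* and the knockdown library 37. As CPM, the usual scaling of read counts by the total of a library, its level was 70.4 (61.7 to 80.5) in the control and 19.7 (14.3 to 27.2) after knockdown. Its most read isoform, Son-203, made up 35.0% and 35.1% of these reads, and *Son* had too few reads in the knockdown to be among the genes described. In total RNA, split reads over *Son* introns, scaled in the same way to all split reads, were 246 and 275 in the control libraries against 83.5 and 89.3 in those of the knockdown. In such bulk RNA, a lower level in every cell and a lower share of cells with the RNA cannot be told apart.

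The control library held 3080426 reads and the knockdown library 1874851, of which 80.4% and 80.5% fell in the genes described, with a median of 204 and 122 reads per gene. All 23 pluripotency markers had reads, 11493 CPM in sum in the control and 11231 CPM in the knockdown, led by *Dppa5a*. Markers of fibroblasts, as feeder cells would bring, had 9 and 10 reads over 8 genes, with 6 of them at 0, and markers of primitive endoderm 18 and 8 reads. The mean annotated length of the transcripts read was 2420 nt in the control and 2313 nt in the knockdown, and mitochondrial transcripts took 1.43% and 2.03% of reads. Whether these differences enter the isoform shares was not tested.

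An intron was measured wherever 1 transcript model keeps it inside an exon and another splices it, with at least 50 reads on such models in each library. A small set of introns, mostly short ones, was kept by a clearly larger share of reads in the knockdown library. Of 2881 introns in 1479 genes, 61 (2.12%) were kept by at least 10 percentage points more of the reads in the knockdown with intervals that did not overlap, and 4 (0.139%) by at least 10 points less. The 61 introns lie in 38 genes, and introns of 1 gene share reads. The sequences of 6 of them are shown because they carry the largest differences among introns of up to 300 nt in coding sequence that overlap no other gene, 1 per gene. The first 6 bases (the 5′ splice site) and the last 3 bases (the 3′ splice site) are in capitals, and the letters come from GENCODE M21 transcripts on GRCm38.
Man2b1 intron 2: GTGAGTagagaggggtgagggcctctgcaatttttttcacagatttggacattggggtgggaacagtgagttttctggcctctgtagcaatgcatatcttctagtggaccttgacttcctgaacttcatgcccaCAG
Cuta intron 2: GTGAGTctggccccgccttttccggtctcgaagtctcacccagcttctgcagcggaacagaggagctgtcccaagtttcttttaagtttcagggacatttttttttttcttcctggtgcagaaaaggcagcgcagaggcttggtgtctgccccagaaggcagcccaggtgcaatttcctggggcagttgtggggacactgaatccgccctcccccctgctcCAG
Cenpt intron 2: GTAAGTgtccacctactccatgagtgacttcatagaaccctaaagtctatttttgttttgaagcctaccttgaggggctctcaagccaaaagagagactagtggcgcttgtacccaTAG
Tarbp2 intron 8: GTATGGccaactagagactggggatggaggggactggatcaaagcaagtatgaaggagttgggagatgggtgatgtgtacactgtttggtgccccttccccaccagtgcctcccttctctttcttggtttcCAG
Ppdpf intron 2: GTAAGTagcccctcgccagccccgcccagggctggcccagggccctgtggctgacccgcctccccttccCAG
Dpp7 intron 10: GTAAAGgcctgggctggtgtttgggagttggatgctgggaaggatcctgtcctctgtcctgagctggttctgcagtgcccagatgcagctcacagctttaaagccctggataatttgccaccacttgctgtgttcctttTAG
All 6 begin with GT and end with AG, and each holds a stop codon in the reading frame of the spliced model. They are numbered from the 5′ end of the spliced model.

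*Man2b1* intron 2, 137 nt at chr8:85084504-85084640 on the plus strand of GRCm38, lies in the gene of lysosomal alpha-mannosidase. It was kept in 83 of 158 reads in the control (52.5%, 44.8 to 60.2) and in 72 of 85 in the knockdown (84.7%, 75.6 to 90.8). *Cuta* intron 2, 224 nt at chr17:26939093-26939316 on the minus strand, lies in the gene of the mammalian homolog of the bacterial CutA protein. It was kept in 70 of 225 reads (31.1%, 25.4 to 37.4) and in 83 of 132 (62.9%, 54.4 to 70.6). In the knockdown library the spliced form was the smaller part of these reads in both genes.

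*Cenpt* intron 2, 119 nt at chr8:105849714-105849832 on the minus strand, belongs to a kinetochore gene, and 7 introns of *Cenpt* were among the 61. It was kept in 28 of 201 reads (13.9%, 9.82 to 19.4) and in 28 of 63 (44.4%, 32.8 to 56.7). *Tarbp2* intron 8, 134 nt at chr15:102523051-102523184 on the plus strand, lies in the gene of a double-stranded RNA binding partner of Dicer. It was kept in 16 of 122 reads (13.1%, 8.24 to 20.2) and in 34 of 78 (43.6%, 33.1 to 54.6). In both genes the shares of the libraries lay well apart, as the choice from the 61 required.

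*Ppdpf* intron 2, 72 nt at chr2:181187737-181187808 on the plus strand and 75% G and C, was kept in 28 of 157 reads (17.8%, 12.6 to 24.6) and in 33 of 75 (44.0%, 33.3 to 55.3). *Dpp7* intron 10, 142 nt at chr2:25353218-25353359 on the minus strand, lies in the gene of a dipeptidyl peptidase and was kept in 25 of 109 reads (22.9%, 16.0 to 31.7) and in 33 of 72 (45.8%, 34.8 to 57.3). The single largest difference of all introns was also in *Dpp7*: its intron 4 of 529 nt was kept by 34.8% of reads (26.6 to 44.0) in the control and 76.5% (66.2 to 84.4) in the knockdown.

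**Figure D1:**
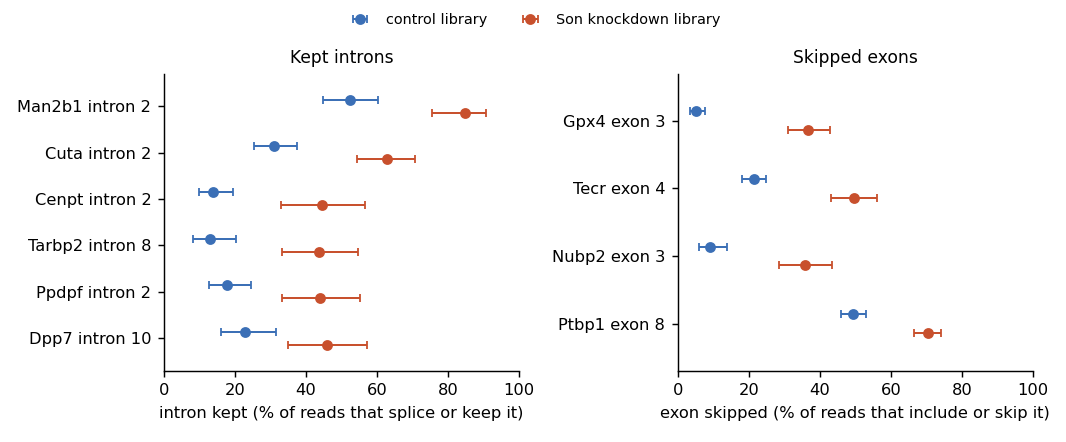
Share of reads that keep an intron (left, % of reads on models that splice or keep it) and share that skip an exon (right, % of reads on models that include or skip it) in the control and the *Son* knockdown library, for the introns and exons whose sequences are given. Points are the single libraries and bars 95% Wilson intervals. In all 10 the knockdown point lies to the right of the control and the bars do not overlap, which their selection required.

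Some of the 61 introns lie in deeply read genes, and the genes named here were chosen after their values were seen. *Eif4a1*, the RNA helicase of the cap-binding complex, kept its 247-nt intron 9 in 24.8% of reads (23.7 to 25.9) in the control and 36.9% (35.3 to 38.5) in the knockdown. *Hspa5*, the chaperone BiP of the endoplasmic reticulum, kept its 82-nt intron 1 in 26.4% (22.7 to 30.5) and 40.9% (35.7 to 46.3). *Ost4*, a small subunit of the oligosaccharyltransferase, kept its 128-nt intron 1 in 18.5% (16.2 to 21) and 35.2% (31.4 to 39.2). The intervals of each gene lay apart by several points, and some gap was required of all 61. The *Eif4a1* intron overlaps the annotated gene *Gm24029*, so its reads are uncertain. *U2af1l4*, a relative of the small subunit of the 3′ splice site factor U2AF, kept its 71-nt intron 4 in 0 of 79 control reads, where a limit of 3 counts allows a share of up to 3.8%, and in 12.3% (6.08 to 23.2) of knockdown reads. This intron overlaps *Gm49396* and is uncertain for the same reason.

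The introns kept more were shorter than the introns measured. They had a median of 142 nt, while all 2881 had a median of 286 nt, and 38 of 61 (62.3%) were at most 200 nt against 39.1% of all. With the introns split by length into 5 classes of about equal number, introns of 30 to 104 nt were kept more in 18 of 586 cases (3.07%) and introns of 105 to 208 nt in 22 of 572 (3.85%). Among introns of 209 to 415 nt the count was 9 of 572 (1.57%), and among those of 960 to 15387 nt it was 5 of 573 (0.873%). None of the introns kept less was in the 2 classes of shorter introns. The median G and C content was 53.7% against 48.6%, and all 61 introns had GT and AG ends, as 97.0% of all did. Of the 52 that interrupt a coding sequence, 44 (84.6%) held a stop codon in frame, against 2076 of 2326 (89.3%) of all such introns. The 5′ splice site letters GTAAGT, which pair well with U1 snRNA, opened 9 of the 61 (14.8%) and 10.9% of all. In 14 of the 61 the intron overlaps another annotated gene, where reads could have been assigned to the other gene. Among all measured introns with a sequence this held for 357 of 2879, a smaller share. The features are given as a description, with no test.

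**Figure D2:**
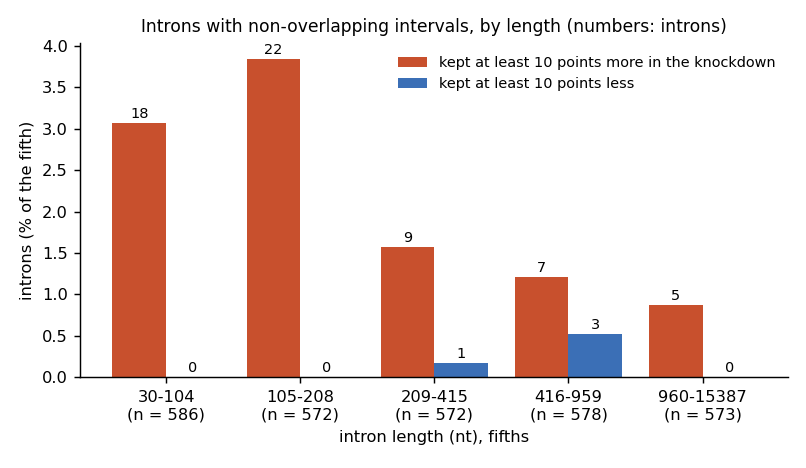
Percentage of measured introns kept at least 10 points more (orange) or less (blue) in the *Son* knockdown library with intervals apart, in 5 classes of intron length (nt). Bars start at 0 and the numbers above them are introns; the orange bars reach 3.07% and 3.85% in the 2 shorter classes and 0.873% in the longest, and no blue bar exceeds the orange one beside it.

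The 4 introns kept less were longer, with a median of 587.5 nt. *Rps12*, a small-subunit ribosomal protein gene, kept intron 1, which overlaps *Gm23130*, in 51.3% (47.1 to 55.4) of control and 38.1% (33.2 to 43.2) of knockdown reads. *Myl6*, a myosin light chain gene, kept intron 1 in 30.3% (22.7 to 39.0) and 10.6% (6.55 to 16.8). This *Myl6* intron spans a 108-nt exon that was skipped in 54.4% (46.6 to 61.9) and 72.6% (65.7 to 78.6) of reads. The model ENSMUST00000219655 counts both as splicing the intron and as skipping the exon, so the values share reads. The other two were *Gfer* intron 3, a sulfhydryl oxidase gene, with 20.7% and 5.00%, and *2310022A10Rik* intron 10 with 89.4% and 69.8%.

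Exon skipping was measured in the same way for 4140 exons of 1733 genes. In the knockdown library 48 exons (1.16%) of 32 genes were skipped by at least 10 points more of the reads with intervals apart, and 12 (0.29%) of 11 genes by at least 10 points less. The sequences of 4 exons are shown, those among the 48 that lie in the coding sequence of a gene described further on for its isoform shift or its decay-prone isoforms and are at most 240 nt long. The exon is in capitals, with 20 nt of the neighbouring exons of the including model in lower case, from GENCODE M21 transcripts on GRCm38.
Gpx4 exon 3: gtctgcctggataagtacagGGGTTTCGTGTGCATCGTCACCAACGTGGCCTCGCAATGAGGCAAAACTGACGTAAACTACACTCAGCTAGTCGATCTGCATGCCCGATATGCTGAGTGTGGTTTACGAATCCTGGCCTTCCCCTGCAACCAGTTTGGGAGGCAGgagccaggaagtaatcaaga
Tecr exon 4: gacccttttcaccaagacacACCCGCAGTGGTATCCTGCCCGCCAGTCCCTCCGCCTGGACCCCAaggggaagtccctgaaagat
Nubp2 exon 3: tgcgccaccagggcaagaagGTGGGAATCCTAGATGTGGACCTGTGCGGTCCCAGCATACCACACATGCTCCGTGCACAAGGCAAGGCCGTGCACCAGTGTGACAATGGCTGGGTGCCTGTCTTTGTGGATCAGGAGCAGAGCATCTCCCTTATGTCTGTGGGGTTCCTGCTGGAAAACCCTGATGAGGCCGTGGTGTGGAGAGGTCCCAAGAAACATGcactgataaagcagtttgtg
Ptbp1 exon 8: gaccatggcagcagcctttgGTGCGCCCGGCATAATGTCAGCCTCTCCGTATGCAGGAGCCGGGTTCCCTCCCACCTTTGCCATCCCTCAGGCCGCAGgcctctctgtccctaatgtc
The capitals are what the skipping model leaves out.

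*Gpx4* codes for a selenocysteine enzyme that reduces lipid peroxides and protects cells from ferroptosis. Its exon 3, 145 nt at chr10:80054700-80054844 on the plus strand, was skipped in 20 of 396 reads in the control (5.05%, 3.29 to 7.67) and in 94 of 256 in the knockdown (36.7%, 31.1 to 42.8). This exon holds the TGA that is annotated as the selenocysteine codon, at bases 38 to 40 of the capitals, and its length is not a multiple of 3. It was the only measured exon with an annotated selenocysteine codon. The skipping model also begins 6322 nt upstream of the including model, so the reads counted as skipping differ at their 5′ end as well.

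*Tecr* codes for the reductase of the last step of very-long-chain fatty acid elongation. Its exon 4, 45 nt or 15 amino acids at chr8:83573411-83573455 on the minus strand, was skipped in 120 of 561 reads (21.4%, 18.2 to 25.0) in the control and 112 of 226 (49.6%, 43.1 to 56.0) in the knockdown. *Nubp2* codes for a scaffold protein of cytosolic iron-sulfur cluster assembly. Its exon 3, 199 nt at chr17:24885419-24885617 on the minus strand, was skipped in 18 of 197 reads (9.14%, 5.86 to 14) and 55 of 154 (35.7%, 28.6 to 43.5). *Ptbp1* codes for the polypyrimidine tract binding protein, a splicing repressor. Its exon 8, 78 nt or 26 amino acids at chr10:79860117-79860194 on the plus strand, was skipped in 386 of 781 reads (49.4%, 45.9 to 52.9) and 376 of 534 (70.4%, 66.4 to 74.1). In *Tecr* and *Ptbp1* the skipped form keeps the reading frame, and in *Nubp2* it does not.

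Other exons with large differences were named after their values were seen. *Tmem179b*, a gene of a transmembrane protein, skipped its 188-nt exon 2 in 17.6% (10.6 to 27.8) and 50.0% (36.6 to 63.4) of reads. *Eif4g1*, the scaffold of the translation initiation complex, skipped its 57-nt exon 2 in 38.1% (30.6 to 46.2) and 70.2% (60.8 to 78.1). *Dhps*, the enzyme that starts hypusine formation on eIF5A, skipped its 122-nt exon 3 in 3.33% (1.30 to 8.26) and 31.5% (20.7 to 44.7). Each of these skipped forms had a larger share in the knockdown. In the other direction, *Med23*, a Mediator subunit gene, skipped its 18-nt exon 11 in 40.3% (32.6 to 48.4) and 21.1% (13.4 to 31.5). *Kat7*, a histone acetyltransferase gene, skipped its 90-nt exon 6 in 65.3% (55.7 to 73.9) and 44.2% (33.6 to 55.3). The exons of *Eif4g1* and *Med23* do not lie within an annotated coding sequence of the including model. Exons skipped more included 18 of 1763 whose length is a multiple of 3 and 30 of 2377 whose length is not, with a median length of 102.5 nt against 109.5 nt for all.

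Annotation also labels whole transcripts as retained-intron models, and these were summed per gene. Over all genes described, such models took 6.67% of reads (6.64 to 6.70) in the control and 7.14% (7.10 to 7.19) in the knockdown, 0.471 points more. Models labelled for nonsense-mediated decay took 1.41% and 1.49%, coding models 87.9% and 87.6%, and processed transcripts 4.0% and 3.68%. Of 2412 genes with reads on a retained-intron model, 74 (3.07%) had a share at least 10 points higher in the knockdown and 33 (1.37%) at least 10 points lower. With intervals apart these were 34 (1.41%) and 6 (0.249%). Over all 2412 genes the direction was near even, with 1224 higher and 1184 lower and a median difference of 0.0256 points. A retained-intron label names the model a read was assigned to and does not show that the whole read was seen.

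*C1qbp*, which codes for a mitochondrial matrix protein, had the largest difference among genes with at least 100 reads in each library. Its retained-intron models had 57 of 873 reads in the control (6.53%, 5.07 to 8.37) and 62 of 233 in the knockdown (26.6%, 21.3 to 32.6). The main coding model had 816 reads (93.5%, 91.6 to 94.9) and 171 (73.4%, 67.4 to 78.7), and the gene as a whole 283 and 124 CPM, so the higher share came with a lower level of the gene. With transcripts under 1000 nt left out, the difference of 20.1 points became 9.34. *Mrpl52*, a mitochondrial ribosomal protein gene, had 91 of 780 reads on such models (11.7%, 9.60 to 14.1) and 92 of 399 (23.1%, 19.2 to 27.4). By annotation the intron kept in *Mrpl52* is 79 nt long, and it was not among the introns kept more. The gene had 253 and 213 CPM.

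The 12 largest differences also included genes whose level hardly differed. *Nop56*, a core protein of the box C/D small nucleolar RNPs that modify ribosomal RNA, had 587 of 1090 reads on retained-intron models (53.9%, 50.9 to 56.8) and 454 of 680 (66.8%, 63.1 to 70.2). *Ppan*, a ribosome assembly factor, had 44 of 252 (17.5%, 13.3 to 22.6) and 50 of 154 (32.5%, 25.6 to 40.2). *Ddx47*, a helicase of ribosomal RNA processing, had 8 of 188 (4.26%, 2.17 to 8.17) and 20 of 122 (16.4%, 10.9 to 24.0). Their CPM was 354 and 363, 81.8 and 82.1, and 61.0 and 65.1, so in these genes the retained-intron models were higher in level as well as in share. *Cdt1*, which licenses replication origins, had 92 of 297 (31.0%, 26.0 to 36.5) and 89 of 199 (44.7%, 38.0 to 51.7). Its 92-nt intron overlaps the annotated gene *Gm20388* and the 194-nt intron of *Ppan* overlaps *Gm24067*, so reads of both are uncertain. In *Nop56*, exon 8 was skipped in 48.0% of reads (44.8 to 51.2) in the control and 62.2% (58.2 to 66.0) in the knockdown. The most read skipping model, ENSMUST00000160976, was also the leading *Nop56* transcript in the knockdown library.

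*Dgka*, a diacylglycerol kinase, had 138 of 173 reads on retained-intron models (79.8%, 73.2 to 85.1) and 110 of 118 (93.2%, 87.2 to 96.5). *Mier1*, a corepressor that binds histone deacetylases, had 112 of 210 (53.3%, 46.6 to 60) and 75 of 108 (69.4%, 60.2 to 77.3). *Chd9*, a chromatin remodeller, had 108 of 456 (23.7%, 20 to 27.8) and 85 of 241 (35.3%, 29.5 to 41.5). In *Dgka* and *Mier1* these models held most reads in both libraries. *Pcolce*, an enhancer of procollagen processing, had 38 of 473 (8.03%, 5.91 to 10.8) and 44 of 229 (19.2%, 14.6 to 24.8). *Commd4*, a COMM domain gene, had 25 of 359 (6.96%, 4.76 to 10.1) and 34 of 167 (20.4%, 15.0 to 27.1). *Cuta* had 112 of 315 (35.6%, 30.5 to 41.0) and 97 of 194 (50.0%, 43.0 to 57.0). No intron of *C1qbp*, *Mrpl52*, *Nop56*, *Mier1*, *Chd9* or *Pcolce* was among the 61 introns kept more. For these genes the difference in retained-intron share rests on the labels of the models.

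Of the 1457 genes with at least 100 reads in each library, 47 (3.23%) had a higher and 18 (1.24%) a lower retained-intron share with intervals apart. The largest difference downward was in *Sec61a1*. This gene of the pore of the protein translocon had 33 of 229 reads on such models (14.4%, 10.4 to 19.5) and 3 of 122 (2.46%, 0.840 to 6.98). *Eed*, a subunit of Polycomb repressive complex 2, had 118 of 373 (31.6%, 27.1 to 36.5) and 52 of 246 (21.1%, 16.5 to 26.7). *Ciapin1*, an iron-sulfur assembly factor, had 1131 of 1684 (67.2%, 64.9 to 69.4) and 633 of 1081 (58.6%, 55.6 to 61.5). *Mdm2*, the ubiquitin ligase of p53, had 62 of 484 (12.8%, 10.1 to 16.1) and 14 of 288 (4.86%, 2.92 to 7.99). *Sap130*, of the Sin3 corepressor complex, had 18 of 207 (8.70%, 5.57 to 13.3) and 1 of 100 (1.00%, 0.177 to 5.45). With transcripts under 1000 nt left out, the difference in *Sec61a1* went from -12.0 points to -3.79, that in *Eed* from -10.5 to 0 and that in *Mdm2* from -7.95 to -4.41.

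**Figure D3:**
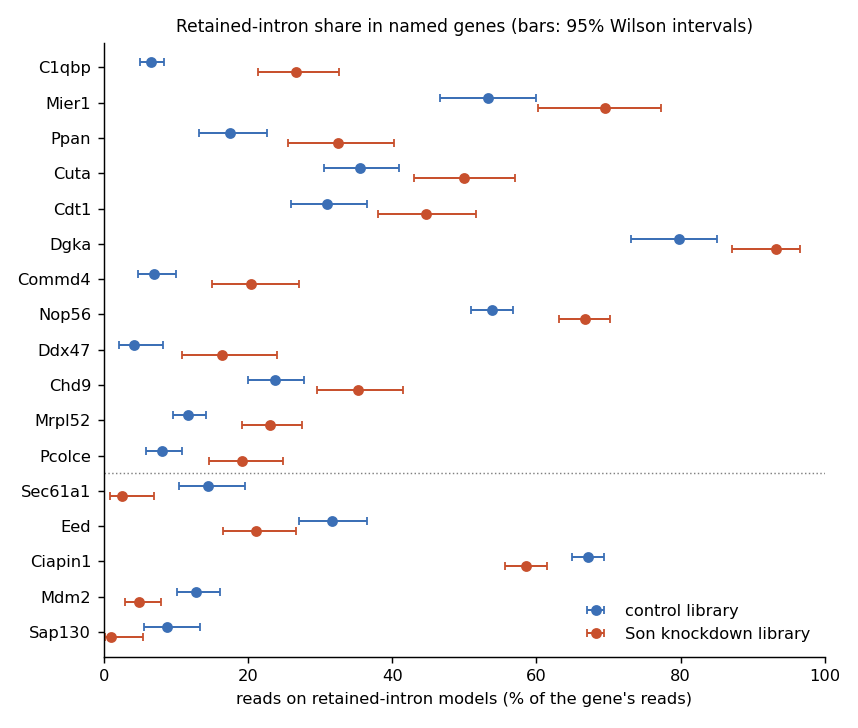
Reads on retained-intron models as a percentage of all reads of the gene, in the control and the *Son* knockdown library, with 95% Wilson intervals. Among genes with at least 100 reads in each library and intervals apart, the 12 above the dotted line have the largest differences upward, from 20.1 points in *C1qbp* to 11.2 points in *Pcolce*, and the 5 below it the largest downward.

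The isoform shift of a gene is the sum, over the transcripts whose share was higher in the knockdown library, of the gain in share, and is 0 points when both libraries have the same shares. The shift was at least 20 points in 138 of 3540 genes (3.9%), and the most read transcript differed in 153 (4.32%). It varied with depth. Genes with 50 to 99 reads in the shallower library had a median shift of 7.50 points, and 110 of 1446 (7.61%) reached 20. Those with 100 to 199 reads had a median of 4.60 points with 21 of 954 (2.20%), and those with 200 to 499 a median of 2.86 with 5 of 661 (0.756%). With 500 reads or more the median was 1.04 points and 2 of 479 (0.418%) reached 20. Genes just inside the limit of 50 reads, with 50 to 59, had a median of 8.53 points, and genes just outside, with 40 to 49, had 9.56 points. Counting error is larger in genes with few reads, and the genes named next have at least 200 reads in each library.

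*Gpx4* had the largest shift, 32.1 points. Its coding model with exon 3 had 367 of 398 reads in the control (92.2%, 89.2 to 94.5) and 159 of 257 in the knockdown (61.9%, 55.8 to 67.6). The model without exon 3, annotated as a processed transcript with no reading frame, made up most of the rest. *Tecr* followed with 31.0 points. Its model with exon 4 had 429 reads (70.9%, 67.2 to 74.4) and 103 (40.6%, 34.7 to 46.7), and the model without it 115 (19.0%, 16.1 to 22.3) and 107 (42.1%, 36.2 to 48.3). The leading *Tecr* isoform thus differed between the libraries, though in the knockdown the intervals of both forms overlap.

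Shifts also occurred in genes of splicing regulators. In *Ptbp1*, with 20.3 points, the model with exon 8 had 363 reads (41.1%, 37.9 to 44.3) and 148 (24.0%, 20.8 to 27.6). The *Ptbp1* model with the largest gain in share had 325 reads (36.8%, 33.6 to 40) and 311 (50.5%, 46.5 to 54.4). In *Hnrnpc*, which codes for an hnRNP that binds uridine tracts and shifted by 20.8 points, a model with 456 reads (31.3%, 28.9 to 33.7) in the control had 395 (42.6%, 39.5 to 45.8). Another *Hnrnpc* model had 285 (19.5%, 17.6 to 21.7) and 91 (9.82%, 8.06 to 11.9). *Hnrnpm*, named after its values were seen, was the only gene in which each library had a leading isoform clear of the next by its interval and the 2 differed. Its isoform ENSMUST00000087582 made up 49.9% and 37.7% of *Hnrnpm* reads and ENSMUST00000148178, which keeps the 117-nt intron 6, made up 38.3% and 49.5%.

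The remaining named shifts lay between 15.4 and 26.4 points. *Aplp2*, of the amyloid precursor family, shifted by 26.4 points: one model had 117 reads (43.3%, 37.6 to 49.3) and 61 (27.4%, 21.9 to 33.6). *Cuedc2*, which codes for a ubiquitin-binding CUE domain protein, shifted by 24.5 points: one model had 70 reads (21.7%, 17.6 to 26.6) and 86 (40.8%, 34.4 to 47.5). *Rarg*, retinoic acid receptor gamma, shifted by 15.4 points. Its main isoforms had 213 and 214 reads in the control, 48.1% (43.5 to 52.7) and 48.3% (43.7 to 53), and 133 and 73 in the knockdown, 60.5% (53.9 to 66.7) and 33.2% (27.3 to 39.6). The control was even between them and the knockdown was not. *Gart*, a trifunctional enzyme of purine synthesis, shifted by 16.1 points, and one of its models had 21.6% (17.9 to 25.8) and 10.7% (7.58 to 15.0). *Thyn1* shifted by 15.7 points, *Ost4* by 16.7, *Mrpl52* by 17.0 and *C1qbp* by 20.1.

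**Figure D4:**
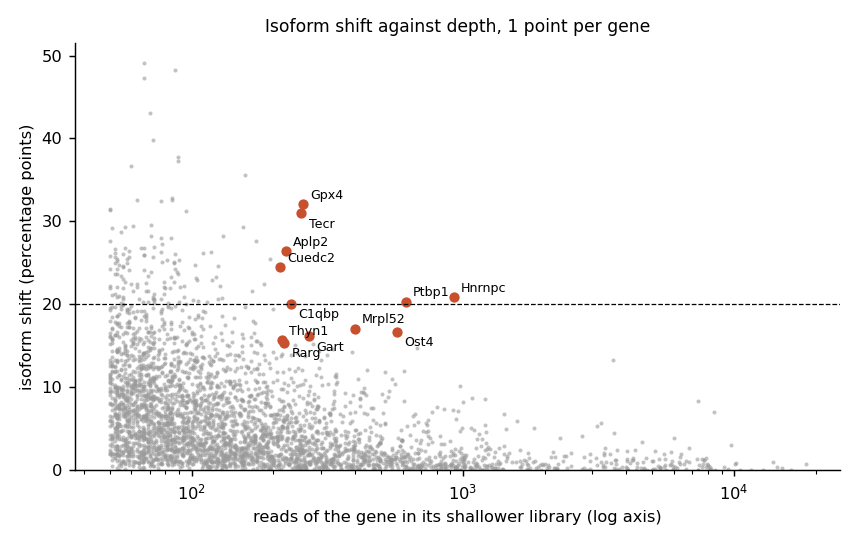
Isoform shift between the libraries (percentage points) against the reads of the gene in its shallower library (log axis), 1 point per gene for 3540 genes; the dashed line marks 20 points. The cloud narrows from a median of 7.50 points at 50 to 99 reads to 1.04 points at 500 or more, and the named genes with at least 200 reads (orange) stand above it, led by *Gpx4* at 32.1 points.

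Models annotated for nonsense-mediated decay had reads in 1009 of the genes, and in 26 their share was at least 10 points higher in the knockdown and in 9 at least 10 points lower. Those named had at least 100 reads in each library and intervals apart. Among them *Nubp2* had the largest difference: 29 of 199 reads (14.6%, 10.3 to 20.1) and 71 of 157 (45.2%, 37.6 to 53), most of them on the model without exon 3. *Bcas2*, a subunit of the PRP19 complex of the spliceosome, had 395 of 1140 (34.6%, 31.9 to 37.5) and 281 of 606 (46.4%, 42.4 to 50.4). *Supt5*, a subunit of the elongation factor DSIF, had 51 of 394 (12.9%, 9.98 to 16.6) and 42 of 183 (23.0%, 17.5 to 29.6). In each the intervals did not overlap, which the rule for naming them required. *Sumf2*, a relative of the sulfatase-modifying factor, had 0 of 214 reads, where a limit of 3 counts allows up to 1.40%, and 13 of 143 (9.09%, 5.39 to 14.9), on a model with an added 44-nt exon. *Hnrnpl* had 31 of 456 (6.80%, 4.83 to 9.49) and 28 of 207 (13.5%, 9.53 to 18.9), on a model with an added 70-nt exon.

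At the level of whole genes, 7 of 3540 (0.198%) had at least 2-fold more CPM in the knockdown and 27 (0.763%) at least 2-fold less, on a log2 ratio with a pseudocount of 0.5 reads, while the median over all genes was 0.03. Scaling by the median ratio of all genes gave 3 and 30. All 7 higher genes had under 200 reads over both libraries. *Isyna1*, the enzyme that starts inositol synthesis, had 358 reads or 116 CPM (105 to 129) in the control and 73 reads or 38.9 CPM (31.0 to 49) in the knockdown, a log2 ratio of -1.57. *Bcam*, a laminin receptor, had 80.2 CPM (70.8 to 90.8) and 27.2 CPM (20.7 to 35.8). *Rnaseh2c*, a subunit of RNase H2, had 77.9 and 27.2 CPM, and *Raly*, an RNA-binding protein gene, 106 and 38.4 CPM. *Gm3052*, with 1692 and 571 CPM, is a predicted gene whose reads may be shared with near-identical copies, so its value is uncertain. In the 4 other genes named the CPM values lay far apart.

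Among genes with at least 200 reads over both libraries, the largest differences upward were smaller than 2-fold. *Fkbp5*, a co-chaperone of steroid receptors, had 35.1 CPM (29.0 to 42.3) and 63.5 CPM (53 to 75.9), a log2 ratio of 0.86. *Glud1*, glutamate dehydrogenase, had 50.0 CPM (42.7 to 58.5) and 89.6 CPM (77.0 to 104). *Sod1*, superoxide dismutase, had 278 CPM (260 to 297) and 475 CPM (445 to 507). Their intervals did not overlap. *Cltb*, *Laptm5* and *Ppp2r5c* had log2 ratios of 0.76, 0.74 and 0.74.

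Lists of splicing genes were read in the same way. No gene of any list had a retained-intron share by model label 10 points higher or lower, against 3.07% and 1.37% of all genes described. Measured by single introns, some listed genes passed 10 points with intervals apart. More reads kept *Hnrnpm* intron 6 (44.2% and 56.1%), *Prpf4b* intron 5 (87.8% and 100%) and *Eif4a2* intron 10 (15.2% and 25.4%). The same held for *Rpl13a* intron 3 and *Rpl31* intron 1, while *Rps12* intron 1 was kept less. The introns of *Rpl13a* and *Rps12* overlap other annotated genes. Of 23 factors of the U1 and U2 snRNPs and the 3′ splice site, 22 were described, and 15 had lower and 7 higher CPM, with a median log2 ratio of -0.18 against 0.03 over all genes. *Puf60*, which helps U2AF at the 3′ splice site, was the one 2-fold lower gene, with 151 CPM (138 to 166) and 68.3 CPM (57.4 to 81.2). *Snrnp70*, the U1 70K protein, had 485 of 815 reads on retained-intron models (59.5%, 56.1 to 62.8) and 377 of 546 (69.0%, 65.0 to 72.8). *U2af2*, the large subunit of U2AF, had a shift of 18.4 points.

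Among 10 of 13 SR and Tra2 genes, which carry RNA-binding and arginine-serine domains, the retained-intron share was higher in 2 and lower in 7 of the 9 with such a model, with a median of -0.37 points. *Tra2a* had 12.2% and 2.35% of 123 and 85 reads, *Srsf5* a shift of 9.52 points, and *Srsf6* 150 and 107 CPM. Of the kinases that phosphorylate SR proteins, 6 of 8 were described. *Prpf4b* had 20.7% and 30.5% of its reads on retained-intron models and 78.2 and 43.7 CPM, *Clk3* a shift of 16.5 points and *Srpk2* 50.6 and 64.0 CPM. The hnRNP list had 18 of 24 genes, 2 of them (*Hnrnpc* and *Ptbp1*) with a shift of 20 points or more, against 3.9% of all genes described, and its median shift was 8.52 against 4.49 points over all genes. *Hnrnpr* had 56.2 and 32.5 CPM and *Hnrnpd* 56.8 and 76.8 CPM. Nuclear speckle genes had 10 of 14 described, with a median shift of 7.96 points. *Acin1* shifted by 17.7 points, *Bclaf1* had 23.7% and 30.0% of reads on retained-intron models, and *Sfpq* 31.2 and 48.5 CPM. These medians move with depth, as the shift does. The intervals of the retained-intron share overlapped between the libraries in *Tra2a*, *Prpf4b* and *Bclaf1*.

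Outside splicing, 78 of 83 ribosomal protein genes were described, with a median log2 ratio of 0.02, a median shift of 0.971 points and 31 genes with a higher and 32 with a lower retained-intron share. *Rpl6*, a large-subunit protein, stood apart within the list, with 2271 of 10655 reads on such models (21.3%, 20.5 to 22.1) and 2157 of 7328 (29.4%, 28.4 to 30.5). *Rpl9* shifted by 11.6 points and *Rpl22l1* had 680 and 489 CPM. The hosts of small nucleolar RNAs were described in 2 of 15 cases. *Eif4a2* had 38.7% and 44.1% of its reads on retained-intron models, with intervals that overlapped. *Rpl13a* had 261 of 12023 reads (2.17%, 1.93 to 2.45) and 213 of 6002 (3.55%, 3.11 to 4.05) on such models. Of the pluripotency genes, 15 of 23 were described, 7 with higher and 8 with lower CPM, and their median shift was 1.43 points. *Dnmt3l*, a cofactor of DNA methyltransferases, had 131 and 191 CPM, *Tbx3* shifted by 7.35 points, and *Dppa4* had 123 and 138 CPM.

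The p53 target genes, 9 of 15, had a median log2 ratio of -0.11, with 3 higher and 6 lower. *Trp53inp1* had 59.1 and 36.3 CPM, and *Cdkn1a*, the cyclin-dependent kinase inhibitor p21, had 53.9 and 48.0 CPM and a shift of 10.2 points. Factors of nonsense-mediated decay, 7 of 15, had a median log2 ratio of 0.11. *Smg5* had 59.4 and 37.3 CPM, *Upf2* a shift of 9.23 points, and *Upf3a* 6.85% and 13.5% of 73 and 52 reads on retained-intron models. Of 12 genes known from other cells to need SON for splicing, only *Aurkb* and *Tubg1* had enough reads. The mitotic kinase gene *Aurkb* had 1 of 165 and 4 of 90 reads on retained-intron models, and the gamma-tubulin gene *Tubg1* had 44.8 and 45.9 CPM. In *Upf3a* and *Aurkb* the intervals of the retained-intron share overlapped between the libraries.

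The total RNA libraries, whose values no rule for the genes above uses, give splicing efficiency, the fraction of split reads at both junctions of an intron. Because the labels name a total RNA knockdown sample as starting material of the long-read samples, the assays may share RNA and may not be independent. None of the 2881 introns measured for keeping in the long reads was listed in all 4 total RNA tables. Only 6 of 68035 compared introns of those tables lay inside an annotated exon. For kept introns, the assays could therefore be set side by side by gene only. Of 63309 introns tested, 1084 (1.71%) had lower splicing efficiency in the knockdown at an adjusted p under 0.05 in edgeR's quasi-likelihood test with Benjamini-Hochberg adjustment, and 28 had higher. Reads of both junctions were summed, so a split read may count at each end. With the 5′ junction alone 231 of 50021 introns were lower, and with the 3′ junction alone 319 of 52435. The count of lower introns was 163 without control replicate 1, 449 without control replicate 2, 645 without knockdown replicate 2 and 275 with DESeq2, and the shares of genes that follow rest on the 1084. Among the genes described by long reads, 142 of 3204 with a tested intron (4.43%) had at least 1 such intron. The labels do not say that the total RNA replicates came from separate cultures, so these p-values may measure technical spread only.

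Of the genes whose retained-intron share was at least 10 points higher in the long reads, 15 of 68 (22.1%) had an intron with lower efficiency in total RNA, and with intervals apart 9 of 29 (31.0%). Over all genes with reads on a retained-intron model and a tested intron it was 113 of 2207 (5.12%). For genes with a share at least 10 points lower it was 1 of 29 (3.45%), and for shifts of 20 points or more 25 of 125 (20%). Genes at least 2-fold lower in CPM had such an intron in 10 of 24 cases (41.7%), and those at least 2-fold higher in 0 of 6. Read the other way, the 142 genes with such an intron had a median log2 CPM ratio of -0.26 in the long reads and a median shift of 9.97 points, against 0.04 and 4.49 in the other 3062. The shift varies with depth, and the depth of these 2 groups was not compared. The shares and medians are a description, with no test.

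Among the named genes, *Isyna1* had lower efficiency in 4 of 4 tested introns. The gene's splicing efficiency was 0.978 in both control libraries and 0.912 and 0.918 after knockdown, and its smallest adjusted p in edgeR's quasi-likelihood test with Benjamini-Hochberg adjustment was 4.56e-07. *Bcam* had lower efficiency in 8 of 10 introns. *Dgka* had 0.894 and 0.847 against 0.740 and 0.714, with 2 of 14 introns called. In these genes the control and knockdown values did not overlap. *Raly*, with 0 of 9 introns called, had 0.968 and 0.968 against 0.972 and 0.969, and *C1qbp* had 0 of 2 called, although both differed in the long reads. *Tecr* had 1 of 4 introns called, with an adjusted p of 1.18e-08 in edgeR's quasi-likelihood test with Benjamini-Hochberg adjustment, and *Gpx4* 0 of 2. Introns next to exons skipped more in the long reads were called lower in 2 of 27 cases (7.41%), in *Tmem179b* and *Ubtf*, against 34 of 3041 (1.12%) next to all measured exons.

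**Figure D5:**
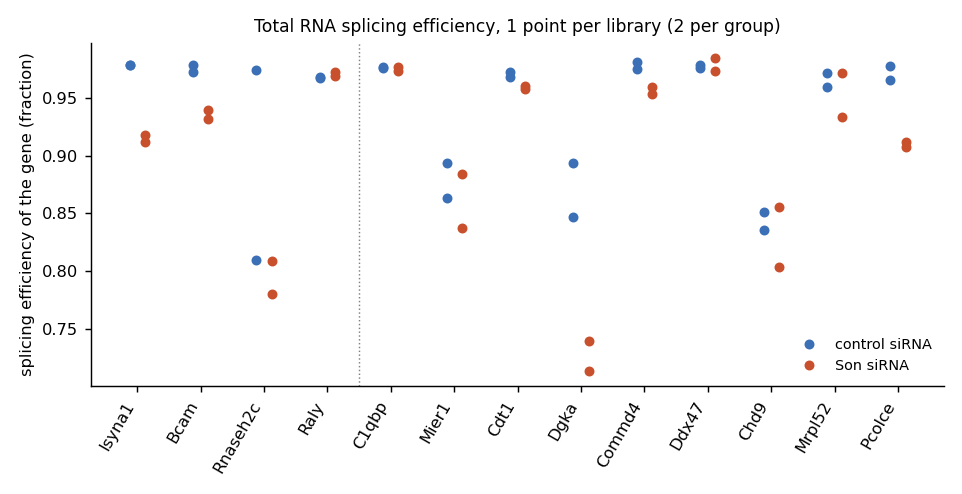
Splicing efficiency of the gene (fraction of split reads over its tested introns) in each total RNA library, 2 control and 2 *Son* knockdown, for genes named with lower CPM (left of the dotted line) and with higher retained-intron share (right) in the long reads; the axis does not start at 0. The gap between the groups is widest in *Dgka*, and the groups overlap in *C1qbp*, *Mier1*, *Ddx47*, *Chd9* and *Mrpl52*.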

How the data were processed

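Per the labels, each long-read table holds a read count and a length for every transcript. The deposited total RNA tables hold SPLICE-q output, per the labels: counts of reads that cross either end of an intron split or unsplit, and a fraction, the splicing efficiency. The submitters' processing notes list GRCm39, minimap2 and SAMtools, with no role or version. The transcript set, the rule that assigned reads to transcripts and any filter are not given in the sources used here. The total RNA tables list positions on another build than the annotation used here, so introns were matched by transcript and length and no position from those tables is printed.

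Transcript names, types, structures and sequences came from GENCODE M21 (GRCm38) by identifier, which covered 98.6% of transcripts. A gene's reads are the sum over its transcripts, and CPM are reads scaled to the library total (3 reads are 0.974 and 1.60 CPM). Intervals are 95% Wilson intervals (scipy 1.17.1; pandas 2.3.3, numpy 2.4.6, Python 3.11.15). Introns kept and exons skipped needed at least 50 reads per library and at least 30 nt of intron, and these measures were added after seeing the data. The total RNA test was edgeR 4.0.16 (R 4.3.3) with Benjamini-Hochberg adjustment, a term per library and at least 10 split and 10 unsplit reads, and was tested on simulated data. DESeq2 1.42.0 served as an alternative, as did other depth limits, scalings, length limits and libraries left out.

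The genes described and the gene lists were chosen with earlier results of these data known. Named genes are the 12 largest increases and 5 largest decreases in retained-intron share (at least 100 reads per library, intervals apart). Under the same limits, the 5 largest increases in share of nonsense-mediated decay models were named. Further named genes are the 12 largest isoform shifts (at least 200 reads per library) and up to 3 per list. The 6 largest differences of CPM each way (at least 200 reads over both libraries) complete the named genes. Replicate numbers came from the titles. Some genes that meet these rules are not reported here. Protein sequences were not used here.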

Additional observations from a re-analysis of the deposited data

Results flagged for a closer look

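Reads on transcripts absent from the GENCODE M21 annotation entered no comparison. They numbered 11760 in the control library and 7322 in the *Son* knockdown library, which is 0.382% and 0.391% of all reads, and stand out only because they lie above the limit of a count of 0. Of 1590 such transcripts, 651 had reads and 31 had at least 50 in each library. The 10 most read held 45.3% and 45.9% of these reads. The most read single one had 1236 and 819 reads.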

How the results depend on the processing

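The retained-intron share over all reads was 0.471 points higher, 0.330 as a mean over genes and 0.594 with transcripts of at least 1000 nt. Genes at least 10 points higher in that share numbered 74, but 255 with 20 reads per library, 6 with 200, 7 at 20 points, 34 with intervals apart and 44 with transcripts of at least 1000 nt. Those lower numbered 33, but 151, 1, 2 and 6 under the first 4 of these settings. Shifts of 20 points numbered 138, but 735 with 20 reads, 7 with 200 and 81 with longer transcripts. Leading transcripts differed in 153 genes, but in 408 with 20 reads, 35 with 200 and 1 where the leader was clear. Genes 2-fold higher numbered 7, but 3 with median-of-ratios scaling, which moved all log2 ratios by -0.03, and 160 from 20 reads over both libraries, where those lower went from 27 to 342. Introns kept more numbered 61, but 117 without separate intervals, 20 with 100 reads, 37 with longer transcripts and 38 counted per gene. Introns kept less numbered 4, but 31, 2 and 2. Exons skipped more numbered 48, but 100 without separate intervals and 28 with 100 reads, and exons skipped less 12, but 54 and 3. Total RNA introns with lower efficiency numbered 1084, but 275 with DESeq2, 231 at 5′ junctions and 319 at 3′ junctions alone. Leaving out 1 library gave 163 to 1394, the lowest without control replicate 1; 449 without control replicate 2 and 645 without knockdown replicate 2. With a replicate block it was 1580, but the labels do not say that equal numbers share a culture. Of 85 alternatives for the named genes, 81 moved the value by less than its interval, 4 by more (*C1qbp* in both measures, *Sec61a1* and *Eed*), and 0 reversed it. The causes were not tested. With a median of 204 and 122 reads per gene, small differences in share were not detectable in most genes.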
